A study of Mus musculus with 51 samples.

Results

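The genes described here are 10 members of the bone morphogenetic protein (BMP) system in mouse bone: the ligands Bmp2, Bmp4, Bmp5, Bmp6, Bmp7, Bmp8a and Bmp8b, the atypical ligand Bmp3, and the secreted antagonists Nog (noggin) and Chrdl1 (chordin-like 1). They were taken by name, 10 of the 23358 genes of the femur RPKM tables and of the 25938 genes of the normalized count table, and all 10 were found in both. RPKM is the number of reads scaled to transcript length and library size. The study asked how vitamin C (VitC) and the TET enzymes, which need VitC to turn 5-methylcytosine into 5-hydroxymethylcytosine (5hmC), shape gene expression in bone. Gulo knockout mice (B6.129P2-Gulotm1Mae), which cannot make VitC, received 3.3 g/L VitC in the drinking water for 20 weeks (VitC+), or for 15 weeks and then none (VitC+/-), and were compared with wild type mice (WT), all aged 20 weeks. In a second experiment on 11 week old mice, Prrx1-Cre mice (Ctrl) were compared with Prrx1-Cre mice carrying flox/flox alleles of Tet1 (Tet1 cKO), of Tet2 (Tet2 cKO) or of both (Tet1/2 cKO). Prrx1-Cre, which the Ctrl mice carry too, recombines in the limb mesenchyme and its descendants, so blood cells of the femur keep their Tet genes. Each RNA group held 3 libraries of flushed femoral bone, and the labels give C57BL/6 as the strain of all. 5hmC was mapped by hMeDIP-seq in femurs of the VitC+, VitC+/-, Ctrl and Tet1/2 cKO groups and, like the histone marks H3K27me3 and H3K9me3, in MC3T3-E1 cells, a mouse calvarial preosteoblast line, grown with β-glycerophosphate, either lacking VitC (VitC-) or given 50 µg/ml of it (VitC+).

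BMPs are secreted dimers of the TGF-β superfamily that bring type I and type II receptors together on the cell surface, which leads to phosphorylation of SMAD1, SMAD5 and SMAD8 and, with SMAD4, to transcription of targets such as the Id genes. They were named for their capacity to induce ectopic bone, and in the skeleton they act on mesenchymal progenitors, osteoblasts and chondrocytes. Noggin and chordin-like proteins bind the ligands outside the cell and keep them from their receptors, and BMP3 binds a type II receptor without giving the osteogenic signal.

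The VitC femur libraries held 31.2 to 47.6 M reads, recovered from the RPKM values, except WT replicate 1 with 7.63 M reads. The Tet femur libraries held 28.6 to 49.8 M reads, with 1 library (Tet1 cKO replicate 3) for which reads could not be recovered. As a check of the labels, Gulo RNA had an RPKM of 0.522, 0.486 and 0 under the label WT, of 0.180, 0.0352 and 0.0294 under VitC+ and of no more than 0.0186 under VitC+/-. All these values lie below the RPKM of 1 used as the filter for tests, so Gulo checks the labels little. No Gulo was detected in WT replicate 3, and VitC+ replicate 1 had the most of any knockout library. Calls between these groups are given with and without both libraries for the members, for the pathway lists and for the marker lists. Whole-gene counts of Tet1 and Tet2 in the Tet1/2 cKO libraries overlapped with Ctrl (415 to 485 against 374 to 435 normalized counts for Tet1, and 1851 to 2970 against 2236 to 2512 for Tet2). In the libraries labelled Tet1 cKO, Tet1 was at 630, 532 and 773, above every Ctrl library. This difference did not pass (log2 fold change 0.64, limma adjusted p = 0.9998). Tet2 in Tet2 cKO was at 1834 to 2245, overlapping with Ctrl (-0.16). Deleting part of a gene in part of the cells need not lower such a count, which therefore checks the labels little. For the Tet1/2 cKO femurs, the paper presents western blots of TET1 and TET2 as knockdown efficiencies. Each peak list is 1 list per group and has no replicate error. The femur lists pool 3 samples per group, and each MC3T3-E1 group has 2 samples per mark. Peak names of the histone lists carry a replicate number of 1, and whether these lists combine both samples is not given in the sources used here.

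In the GRCm38 annotation, Bmp2 lies at chr2:133552159-133562896, Bmp3 at chr5:98854415-98884053, Bmp4 at chr14:46383525-46390669, Bmp5 at chr9:75775365-75900316, Bmp6 at chr13:38345716-38500314 and Bmp7 at chr2:172868012-172940321. Bmp8a lies at chr4:123312645-123343252, Bmp8b at chr4:123104308-123126094, Nog at chr11:89300638-89302559 and Chrdl1 at chrX:143285674-143394263. Bmp8a and Bmp8b are related genes on the same chromosome. Their sequences were not compared, and whether reads were split or lost between them was not tested, so their values are uncertain to this extent. Within 1 kb of a start site, the VitC+ femur list held 5hmC peaks at Bmp2, Bmp3, Bmp4, Bmp6 and Bmp8a and the VitC+/- list at Bmp2 and Bmp5, a loss at 4 of 5 genes with such a peak and a gain at 1 of 2. Over all genes, 21.9% of those with a start-site peak in VitC+ had none in VitC+/-, and 13.9% of those with one in VitC+/- had none in VitC+. The DNA under the peaks found in only 1 of the lists is shown because these are the start-site windows in which the lists differed. Sequences are from RefSeq's GRCm38 (mm10) genome, 5′ to 3′ on the strand of the gene, with each CG dinucleotide, the main target of methylation, in capitals; CG reads the same on both strands. All 5 lie upstream of the gene.
Bmp3, VitC+ only, plus strand, 300 of 485 bp, chr5:98853811-98854110: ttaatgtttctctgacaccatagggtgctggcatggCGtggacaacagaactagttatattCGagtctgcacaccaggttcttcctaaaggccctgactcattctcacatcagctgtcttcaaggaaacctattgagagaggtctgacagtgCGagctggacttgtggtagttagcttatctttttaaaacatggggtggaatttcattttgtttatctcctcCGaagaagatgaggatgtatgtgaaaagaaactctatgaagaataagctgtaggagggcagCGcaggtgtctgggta
Bmp4, VitC+ only, minus strand, all 231 bp, chr14:46390940-46391170: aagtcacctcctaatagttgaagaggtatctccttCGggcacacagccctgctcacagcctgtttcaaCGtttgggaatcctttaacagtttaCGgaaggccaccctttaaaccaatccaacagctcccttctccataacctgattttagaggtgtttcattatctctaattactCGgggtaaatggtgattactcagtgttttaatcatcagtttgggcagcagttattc
Bmp6, VitC+ only, plus strand, all 227 bp, chr13:38344668-38344894: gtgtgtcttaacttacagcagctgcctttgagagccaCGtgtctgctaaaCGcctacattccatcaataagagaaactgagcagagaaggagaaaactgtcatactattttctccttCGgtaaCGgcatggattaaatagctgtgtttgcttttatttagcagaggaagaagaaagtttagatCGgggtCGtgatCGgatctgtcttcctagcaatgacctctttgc
Bmp8a, VitC+ only, minus strand, 300 of 497 bp, chr4:123343770-123344069: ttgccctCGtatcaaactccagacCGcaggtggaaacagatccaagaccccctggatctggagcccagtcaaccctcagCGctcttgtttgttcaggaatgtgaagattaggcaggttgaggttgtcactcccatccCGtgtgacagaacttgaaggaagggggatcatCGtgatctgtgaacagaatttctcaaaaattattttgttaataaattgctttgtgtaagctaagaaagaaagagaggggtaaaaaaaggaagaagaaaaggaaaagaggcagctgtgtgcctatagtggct
Bmp5, VitC+/- only, plus strand, all 221 bp, chr9:75774254-75774474: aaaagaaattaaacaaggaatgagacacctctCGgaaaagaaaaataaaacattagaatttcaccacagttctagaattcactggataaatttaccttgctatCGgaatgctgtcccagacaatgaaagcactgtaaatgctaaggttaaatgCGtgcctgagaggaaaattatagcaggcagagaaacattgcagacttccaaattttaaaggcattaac

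The peaks at Bmp3, Bmp4, Bmp6 and Bmp8a had fold enrichments of 5.21, 3.69, 4.80 and 3.79 over the local background and were centred at -0.38, -0.39, -0.94 and -0.77 kb from the start site. The printed stretches hold 5, 4, 7 and 5 CG dinucleotides, or 1.67, 1.73, 3.08 and 1.67 per 100 bases. Peaks of the VitC+ list as a whole had a median of 0.84 per 100 bases (quartiles 0.46 and 1.25), and 92.2% held at least 1 CG. These rates are over whole peaks at any place in the genome. They are thus not matched to the printed stretches in length or in distance from a start site. The stretch at Bmp5, gained in VitC+/- with a fold of 2.59, holds 3, or 1.36 per 100 bases. In the second femur experiment, peaks within 1 kb of the start of Bmp3 were present in Ctrl with a fold of 4.65 and in Tet1/2 cKO with 4.29, so that this window carried 5hmC in 3 of 4 femur lists. At Bmp2, the only member with a start-site peak in all 4 femur lists, the fold was 13.9 in VitC+, 8.73 in VitC+/-, 6.64 in Ctrl and 7.67 in Tet1/2 cKO. No list pair has replicates, so whether such a loss or gain exceeds the spread between animals was not tested.

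Over the 9 VitC libraries, Bmp3 had the highest mean level, 5.95 scaled RPKM (RPKM divided by a median-of-ratios factor for each library), and Bmp8b the lowest, 0.0785. Between them came Bmp4 with 4.04, Bmp5 with 4.02, Bmp6 with 3.10, Bmp2 with 2.94, Nog with 2.43, Chrdl1 with 2.08, Bmp8a with 1.89 and Bmp7 with 1.33. Neighbours in this order overlapped in their range over the libraries, except Bmp7 (0.293 to 3.03) and Bmp8b (0 to 0.123). The order differed between groups: by group mean Bmp3 led in VitC+ (10.56) and in WT (4.17), but in VitC+/- (3.13) it was below Bmp5 (6.17), Bmp4 (5.46), Nog (4.985), Bmp8a (3.69) and Bmp2 (3.43). The other 9 genes had similar levels, from the 49.8 to the 68.6 percentile of all genes. Bmp8b rested on at most 21.8 reads in a library (computed with the longest RefSeq transcript) and, below an RPKM of 1 everywhere, was not tested in the VitC femurs.

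**Figure D1:**
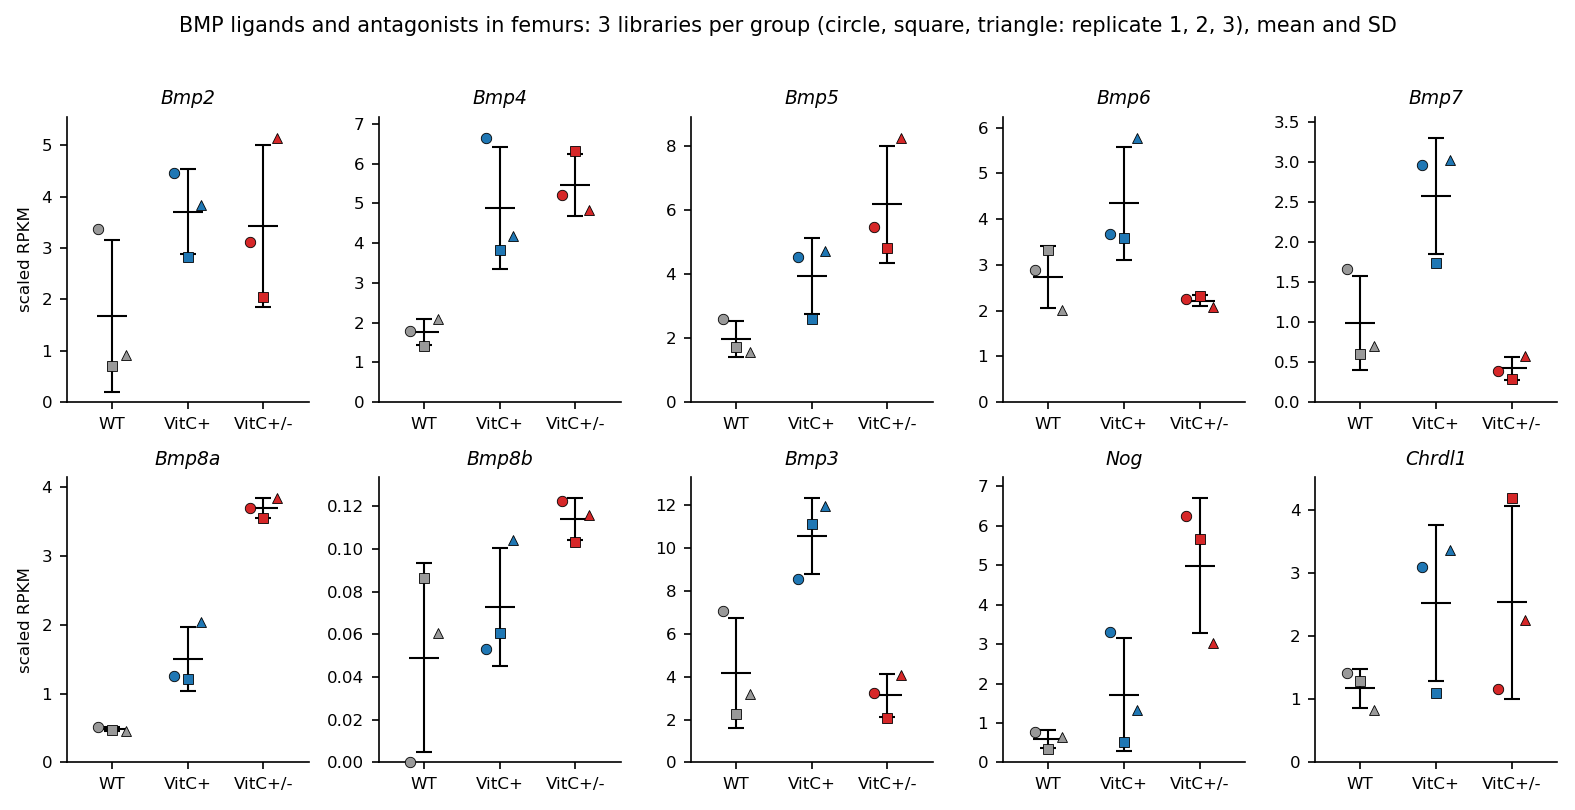
Scaled RPKM of the 10 genes (vertical axes from 0, 1 scale per gene) in the 3 libraries each of WT, VitC+ and VitC+/- femurs; points are libraries, bars are mean and SD. Bmp3, Bmp6 and Bmp7 sit lower in all VitC+/- libraries than in all VitC+ libraries, Bmp5 and Bmp8a higher, and Bmp4 and Bmp8a sit lower in all WT libraries than in all others.

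After VitC withdrawal, the BMP genes did not move in 1 direction: in VitC+/- against VitC+ femurs, Bmp3, Bmp7 and Bmp6 were lower and Bmp8a was higher. These were 4 of the 9 members tested, where 13.5% of all 12586 genes passed the same threshold (limma, adjusted p under 0.05; 7.95% lower and 5.51% higher). Groups that did not overlap were found for 3 members lower and 2 higher, against 20.1% and 20.5% of all genes. The median log2 fold change of the members was -0.02, beside 0.01 for all genes. Fold changes are on the scale of log2(scaled RPKM + 0.5), which understates the change of low genes.

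Bmp3, the most abundant BMP protein of bone matrix and a brake on osteogenic BMP signals, had 8.58, 11.1 and 11.97 scaled RPKM in VitC+ and 3.23, 2.08 and 4.09 in VitC+/-. All withdrawn libraries were below all supplemented ones, a 3.10-fold difference (log2 fold change -1.63, SE 0.36, adjusted p = 0.0205). Bmp7, also known as osteogenic protein 1, fell from 2.96, 1.74 and 3.03 to 0.395, 0.293 and 0.580 scaled RPKM, which left it the lowest tested member in these libraries. The difference was 3.30-fold (log2 fold change -1.72, SE 0.31, adjusted p = 0.0106). Bmp6, a ligand that also controls iron balance through hepcidin, was at 3.68, 3.59 and 5.77 in VitC+ and at 2.26, 2.32 and 2.08 in VitC+/-. The withdrawn libraries were close together and below the others, and the difference of 1.75-fold passed narrowly (log2 fold change -0.81, SE 0.22, adjusted p = 0.0446).

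Bmp8a, a ligand of the osteogenic protein group best known from the male germ line, moved the other way, from 1.25, 1.22 and 2.04 scaled RPKM in VitC+ to 3.69, 3.55 and 3.83 in VitC+/-. Whether this 2.13-fold rise (log2 fold change 1.09, SE 0.20, adjusted p = 0.0116) includes reads of Bmp8b was not tested. Bmp8b itself was at 0.0532, 0.0605 and 0.104 in VitC+ and at 0.123, 0.103 and 0.116 in VitC+/-. Noggin, the antagonist of BMP2, BMP4 and BMP7, was at 3.30, 0.529 and 1.34 in VitC+ and at 6.25, 5.67 and 3.04 in VitC+/-. The ranges overlap through VitC+ replicate 1, and the log2 fold change of 1.45 (SE 0.45) missed the threshold (adjusted p = 0.0605). Without that library, whose Gulo level stands apart, Nog passed with 1.94 (adjusted p = 0.0283), but not when WT replicate 3 was left out too (adjusted p = 0.0584).

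Bmp2, Bmp4, Bmp5 and Chrdl1 did not pass between the Gulo knockout groups. Bmp2, which is needed for fracture repair, was at 4.46, 2.83 and 3.83 scaled RPKM in VitC+ and at 3.12, 2.04 and 5.14 in VitC+/-, and Bmp4 was at 6.65, 3.82 and 4.17 and then at 5.22, 6.33 and 4.85. Both pairs of groups overlap (log2 fold changes -0.15, SE 0.44, and 0.18, SE 0.22). Bmp5, the gene of the short ear mutation, was higher in every withdrawn library (4.52, 2.58 and 4.73 against 5.45, 4.81 and 8.24), but its log2 fold change of 0.59 (SE 0.28) did not pass (adjusted p = 0.180). Chrdl1 ranged from 1.10 to 3.37 in VitC+ and from 1.17 to 4.19 in VitC+/-, with a log2 fold change of -0.02 (SE 0.43).

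With both libraries left out whose Gulo level stands apart, none of the 9 members passed, while the sizes remained near those above: -1.77 for Bmp3 (adjusted p = 0.0823), -1.62 for Bmp7 (0.0738), -0.90 for Bmp6 (0.0995) and 1.00 for Bmp8a (0.0841). In that fit, 173 genes were lower and 83 higher of 12467, against 1001 and 693 with all 9 libraries. The number of members past the threshold was 1 without VitC+ replicate 2 or without VitC+/- replicate 1, where Bmp7 alone remained, and 2 without VitC+ replicate 3 or VitC+/- replicate 2. The calls of Bmp3, Bmp6 and Bmp8a could thus each be lost by leaving out 1 library.

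**Figure D2:**
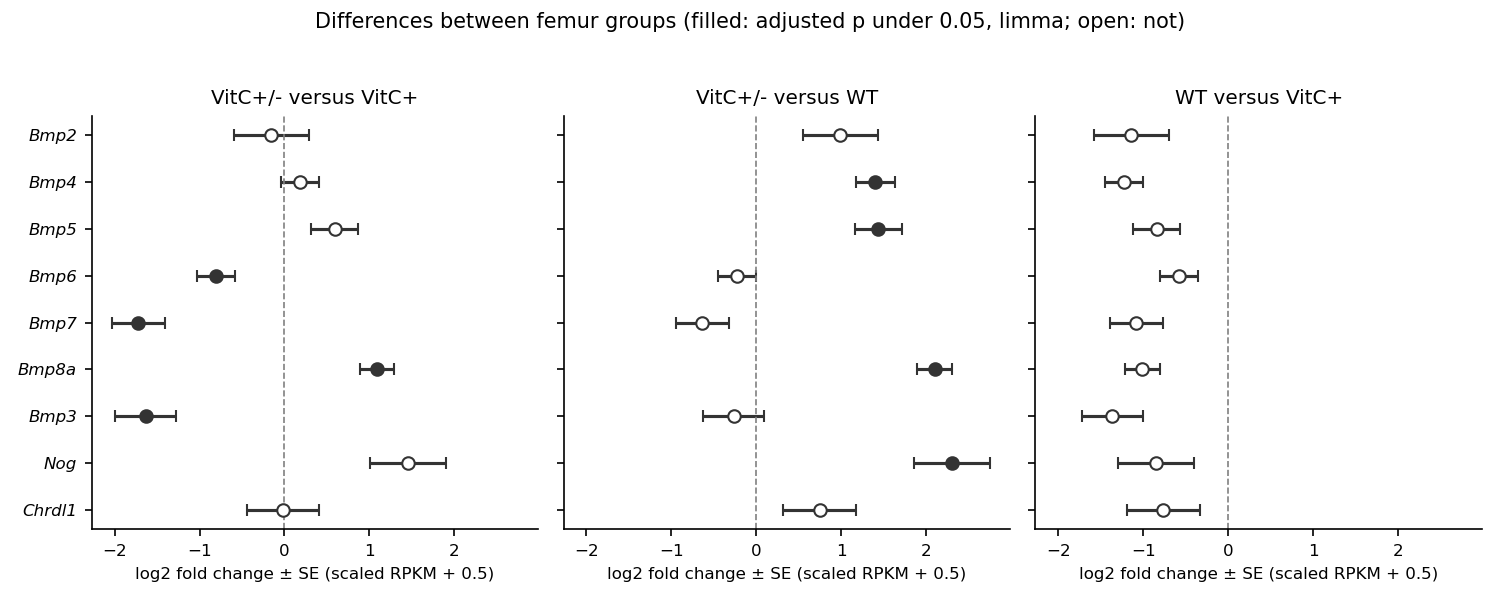
Log2 fold change with SE (horizontal, limma over 9 libraries) of the 9 tested members in 3 comparisons; filled points passed an adjusted p of 0.05 and the dashed line marks no difference. Against VitC+ the members lie on both sides of 0, from -1.72 to 1.45, and all 9 are below 0 in WT against VitC+.

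Marker genes of other cells moved with these differences. Of the osteoblast and osteocyte list, 7 of 16 genes were lower in VitC+/- than in VitC+ and none was higher, with a summed level of 734 to 4549 scaled RPKM against 5723 to 11260. Of the osteoclast list, 4 of 10 were higher (2979 to 6531 against 1949 to 2675). Lower genes were also found among chondrocyte markers (3 of 7 tested, 33.2 to 47.3 against 145 to 498), B-cell precursor markers (8 of 9), megakaryocyte markers (6 of 10) and neutrophil markers (3 of 10, 7093 to 24180 against 30460 to 47280), whereas no adipocyte marker passed (386.5 to 3230 against 204.5 to 438.6). Sums of skeletal muscle markers ran from 8.69 to 1497, with overlap between all 3 groups. None of the osteoblast, osteoclast, megakaryocyte or neutrophil markers was at 0 in a library. Without both libraries of doubtful Gulo level, the lower genes were 4 osteoblast and osteocyte, 1 chondrocyte, 4 B-cell precursor, 5 megakaryocyte and 1 neutrophil marker, and 1 osteoclast marker was higher. Fewer cells of a type and less RNA per cell cannot be told apart in these bulk samples, and the part of such cells in the BMP values was not tested.

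Against WT, 4 members were higher in the withdrawn femurs and none was lower. Bmp4, Bmp5, Bmp8a and Nog were higher among 9 tested (31% of all genes passed, 15.7% lower and 15.3% higher), and the median log2 fold change was 0.99, beside 0.01 for all genes. Bmp8a stood at 0.513, 0.466 and 0.458 scaled RPKM in WT, below every VitC+ and every VitC+/- library, a 4.28-fold difference to VitC+/- (log2 fold change 2.10, SE 0.20, adjusted p = 0.00037). Nog was at 0.783, 0.344 and 0.638 in WT, or 11 to 48 reads, and 4.93-fold higher in VitC+/- (log2 fold change 2.30, SE 0.45, adjusted p = 0.00564). Bmp4 was at 1.78, 1.42 and 2.09 in WT and 2.64-fold higher in VitC+/- (log2 fold change 1.40, SE 0.22, adjusted p = 0.00255). Bmp5 was at 2.60, 1.71 and 1.56 in WT and 2.70-fold higher (log2 fold change 1.43, SE 0.28, adjusted p = 0.00552). For these 4 genes and the untested Bmp8b all withdrawn libraries lay above all libraries labelled WT, and for 1 member, Bmp7, below, beside 21.5% and 21.3% of all genes. Without both libraries of doubtful Gulo level these 4 passed too, with log2 fold changes of 1.50 for Bmp4 (limma adjusted p = 0.0112), 1.32 for Bmp5 (0.0427), 2.08 for Bmp8a (0.00824) and 2.34 for Nog (0.0182). In that fit, 861 genes were lower and 803 higher of 12467.

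Marker genes of other cells differed from WT as well. In VitC+/- 8 of 10 osteoclast markers were higher (sums of 2979 to 6531 against 813 to 892.5 scaled RPKM), 7 of 10 adipocyte markers (386.5 to 3230 against 119.8 to 211.3, with up to 3 of the 10 at 0 in a WT library) and 7 of 10 endothelial markers (139.9 to 155.5 against 71.1 to 88.8). Lower were 10 of 10 neutrophil markers (7093 to 24180 against 53360 to 73560), 8 of 9 B-cell precursor markers and 5 of 10 megakaryocyte markers, and of 16 osteoblast and osteocyte markers 3 were lower and 1 higher. Without both libraries the osteoclast count was 9 higher, the adipocyte count 0 and the endothelial count 4, and 2 neutrophil, 3 B-cell precursor and 3 megakaryocyte markers and 2 of osteoblasts and osteocytes were lower. Their part in the 4 higher members was not tested.

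The remaining members did not pass against WT. Bmp7 was at 1.67, 0.607 and 0.701 in WT, above each withdrawn library (log2 fold change -0.64, SE 0.31, adjusted p = 0.144). Bmp2 was at 3.37, 0.708 and 0.925 and Bmp3 at 7.07, 2.26 and 3.18 in WT, both highest in WT replicate 1, the shallow library (log2 fold changes 0.99, SE 0.44, and -0.27, SE 0.36). Without that library Bmp2 passed as higher in VitC+/- (1.51, adjusted p = 0.0111) and the value of Bmp3 turned to 0.15. Bmp6 (2.89, 3.32 and 2.004 in WT) and Chrdl1 (1.41, 1.29 and 0.830 in WT) overlapped with VitC+/- (log2 fold changes -0.23 and 0.75).

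Between the groups labelled WT and VitC+ no member and no gene passed an adjusted p of 0.05 (0%), although 7 of the 9 members and 21.6% of all genes had an unadjusted limma p under 0.05. The log2 fold changes of all 9 members were negative, that is, lower in WT, and their median was -1.01 beside 0.02 for all genes. Groups did not overlap for 5 of them, Bmp3 (-1.37, SE 0.36), Bmp4 (-1.22, SE 0.22), Bmp6 (-0.58, SE 0.22), Bmp7 (-1.08, SE 0.31) and Bmp8a (-1.01, SE 0.20), whereas 15% of all genes were lower in WT without overlap. Leaving out the shallow WT replicate 1, 5 members passed as lower in WT (Bmp2 -1.66, Bmp3 -1.78, Bmp4 -1.24, Bmp7 -1.39 and Bmp8a -1.04), along with 587 lower and 67 higher genes. Leaving out both libraries of doubtful Gulo level, none passed, with all 9 log2 fold changes still negative, from -1.40 for Bmp3 to -0.40 for Nog. The 3 comparisons share groups, so that a gene high in VitC+, such as Bmp3 or Bmp7, is set against the same libraries in 2 of them. By group mean, Bmp2, Bmp3, Bmp6 and Bmp7 were highest in VitC+, Bmp2 with overlap between the groups. Bmp4, Bmp5, Bmp8a, Bmp8b, Nog and Chrdl1 had their lowest mean in WT and their highest in VitC+/-. For Chrdl1 the means of VitC+ (2.526) and VitC+/- (2.537) were nearly equal. Bmp4 and Bmp8a were lower in all WT libraries than in any other. Markers of osteoblasts and osteocytes summed to 1071 to 4134 in WT, also below VitC+, those of osteoclasts to 813 to 892.5 and those of neutrophils to 53360 to 73560, and their part in these values was not tested.

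Of the wider BMP pathway, 68 further genes were listed by role and counted in the same fits. Among 4 tested of 13 other ligands, only Gdf3, a NODAL-like ligand, passed between VitC+/- and VitC+ (log2 fold change -1.23, adjusted p = 0.0332). Among receptors and co-receptors 10 of 12 were tested. The type I receptor Acvrl1, which endothelial cells use for BMP9 and BMP10, was lower (-1.31, adjusted p = 0.00195) and the type II receptor Acvr2a was higher (1.11, adjusted p = 0.00798). Of 11 tested of 18 other antagonists and modulators, 2 were higher and 2 lower. Fst (follistatin, which traps activins and some BMPs) rose from a mean of 2.59 ± 0.80 to 16.6 ± 4.93 scaled RPKM (SD, n = 3; log2 fold change 2.47, adjusted p = 0.0018) and Fstl3 rose by 1.71 (adjusted p = 0.0272). Sost, the osteocyte product sclerostin, fell by 1.85 on the log2 scale (adjusted p = 0.0282) and Bambi, a receptor decoy, fell by 1.57 (adjusted p = 0.0403).

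Of the 11 tested SMADs and SMAD regulators 4 were higher in VitC+/- than in VitC+, none was lower and 7 did not pass, beside 5.51% of all genes higher, and the median log2 fold change of the 11 was 0.48. They were the signal transducer Smad1 (0.48), its partner Smad4 (0.55), the ubiquitin ligase Smurf1 (0.84) and the co-repressor Ski (0.69), with adjusted p from 0.0226 to 0.0491. Of 10 tested BMP target genes, Id2 was higher (0.78) and Dlx3, a homeobox gene of osteoblasts, lower (-2.17), with a median of -0.29 over the 10. Against WT, 8 of 11 SMADs and regulators were higher, beside 15.3% of all genes, among them Smurf1 (1.27), Ski (1.18), Smad6 (1.01) and Smad7 (0.96), both inhibitory SMADs. Against WT the receptors had 5 higher, led by Acvr1 (1.55), Acvr2a (1.44) and Rgmb (1.12), and Acvrl1 lower (-1.42). Fst (3.09) and Fstl1 (1.86) were higher among the antagonists and Atoh8 (1.50) and Id3 (1.26) among the targets. No gene of these lists passed between WT and VitC+. Without WT replicate 3 and VitC+ replicate 1, Acvrl1 (-1.26, adjusted p = 0.0319) and Fst (2.66, adjusted p = 0.0122) were the pathway genes that passed between VitC+/- and VitC+, and 0 of 11 SMADs and regulators and 0 of 10 targets did, with medians of 0.47 and -0.11. Against WT, 5 receptors, Fst, Fstl1, 4 SMADs and regulators (Smad1, Smad7, Smurf1 and Ski) and Atoh8 were higher without both libraries and Acvrl1 was lower, whereas Smad6 (adjusted p = 0.148) and Id3 (0.106) no longer passed.

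In the Tet femurs no member passed. In Tet1/2 cKO against Ctrl, 0 of 10 members and 0% of 16780 genes had an adjusted p under 0.05 (limma), while 1 member and 5.05% of genes had an unadjusted p under 0.05. Tests on recovered reads called none of the members either (edgeR 0 genes, DESeq2 10 lower and 1 higher). All 10 members had a negative log2 fold change, with a median of -0.80 beside -0.01 for all genes. Bmp8a was at 225, 221 and 162 normalized counts in Ctrl and at 82.4, 75.3 and 108 in Tet1/2 cKO, without overlap (log2 fold change -1.18, SE 0.64, adjusted p = 0.723). Bmp5 was at 587, 609 and 725 and at 179, 410 and 419 (-1.02, SE 0.53), and Bmp3 at 1360, 1058 and 1271 and at 322, 1016 and 804 (-0.93, SE 0.61), also without overlap. Such a pattern was found for these 3 members and for 10% of all genes, and the reverse, higher without overlap, for 0 members and 7.37% of genes.

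Noggin had the largest difference of the family in Tet1/2 cKO, with few reads. It was at 16.9, 92.1 and 57.2 normalized counts in Ctrl and at 0, 10.7 and 23.0 in Tet1/2 cKO, with overlapping ranges (log2 fold change -2.81, SE 1.12, unadjusted p = 0.0286, adjusted p = 0.723). The 0 of replicate 1 enters through the pseudocount of 1, and without that library the log2 fold change was -1.46. Bmp8b was also at 0 in that library (24.3, 13.5 and 27.1 in Ctrl, and 0, 35.8 and 28.8 in Tet1/2 cKO), and without it the log2 fold change turned from -1.08 to 0.60. The other members overlapped between Ctrl and Tet1/2 cKO, with log2 fold changes from -0.66 for Bmp4 to -0.09 for Chrdl1.

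**Figure D3:**
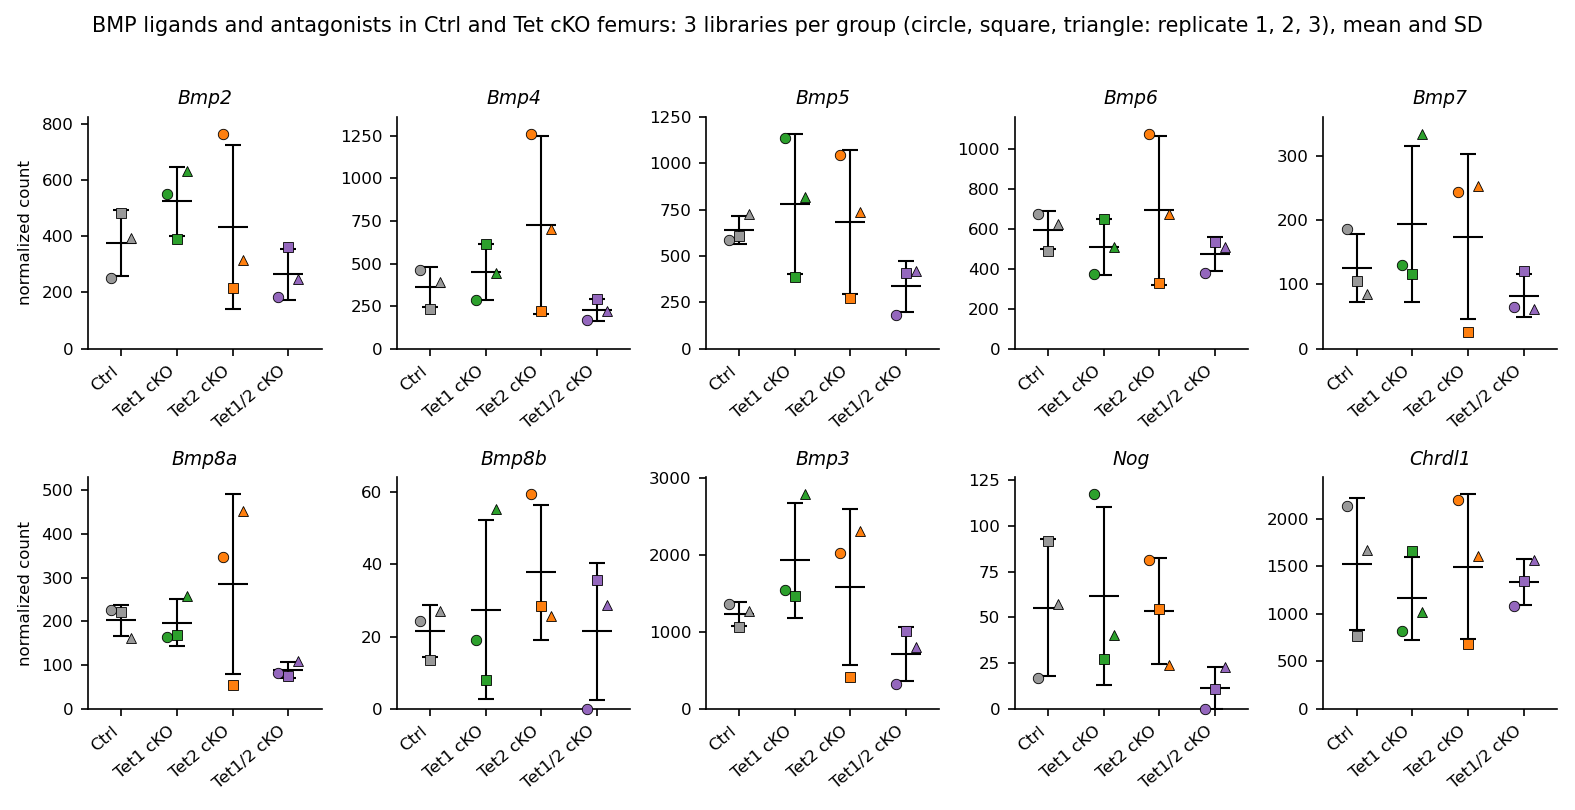
Normalized counts of the 10 genes (vertical axes from 0, 1 scale per gene) in the Tet femurs, 3 libraries for each of 4 groups; points are libraries, bars are mean and SD, drawn only above 0. Bmp3, Bmp5 and Bmp8a are lower in all Tet1/2 cKO than in all Ctrl libraries, and Tet2 cKO replicate 2 (square) is the lowest of its group for all genes but Bmp8b and Nog.

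The single knockouts had no called member either (0.0119% of genes passed in each), and their libraries spread widely. In the libraries labelled Tet1 cKO, Bmp3 alone stood apart from Ctrl, with 1541, 1460 and 2786 normalized counts (log2 fold change 0.59, SE 0.61). These lay above all Ctrl libraries, beside 4.28% of genes higher and 3.54% lower without overlap. The whole-gene count of Tet1, which checks the label little, was not lower in these libraries. In Tet2 cKO all 10 members overlapped with Ctrl, where 2.54% of genes were higher and 3.43% lower without overlap. Tet2 cKO replicate 1 was at 2027 normalized counts of Bmp3, 1261 of Bmp4 and 1042 of Bmp5, and replicate 2 at 418, 220 and 271. The Ctrl libraries lay between these for all 3 genes. Across the libraries labelled Tet1 cKO, Bmp7 ran from 117 to 334 and Nog from 27.5 to 117. Marker levels differed in the same samples: osteoblast and osteocyte genes summed to 319500 to 705300 normalized counts in Tet1/2 cKO, 1018000 to 1314000 in Ctrl and 288900 to 2252000 in Tet2 cKO, and muscle genes to 3522 to 439700 in Tet1/2 cKO and 120400 to 518200 in Ctrl. Their part in the BMP values was not tested. No gene of the pathway lists passed in Tet1/2 cKO, with median log2 fold changes of -1.05 for other ligands, -0.29 for receptors, -0.60 for other antagonists, -0.10 for SMADs and regulators and -1.20 for target genes.

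5hmC peaks around the BMP genes covered less DNA after VitC withdrawal. Genes in general had slightly less cover, and the summed peak length of the whole lists was nearly level. Such a sum, from 1 pooled list per group, does not measure the total amount of 5hmC. By dot blot, the paper reports a marked loss of this mark in bone of VitC-deficient mice. Cover is the summed length of the peaks whose midpoint lies in the gene or within 30 kb of it, so that long peaks can reach past this window. Within 30 kb of the 9 autosomal genes (the VitC femur lists hold no peak on X, so Chrdl1 was left out) there were 257 peaks over 131.3 kb in VitC+ and 220 peaks over 98.1 kb in VitC+/-, a ratio of 0.747 beside 0.997 for the covered length of the whole lists. Cover was lower at 8 of 9 genes and level at Bmp7, and of all genes 59.6% had less cover and 39.6% more. The median log2 ratio was -0.42 beside -0.10. No member reached a 2-fold difference, which 0.413% of genes reached downward and 3.35% upward. Bmp3 went from 33.7 to 25.8 kb, its highest peak from 22.2-fold to 15.3-fold enrichment. Bmp4 went from 10.8 to 6.08 kb, Bmp2 from 14.04 to 8.93 kb and Bmp6 from 20.9 to 14.5 kb. Bmp7, whose RNA differed most, had the least 5hmC, with 8 and 7 peaks over 2.34 and 2.35 kb, and Bmp8a, whose RNA was higher, went from 6.06 to 3.65 kb. Nog went from 5.14 to 3.60 kb, Bmp8b from 3.75 to 2.81 kb and Bmp5 from 34.6 to 30.4 kb. A lower cover was therefore found beside genes whose RNA was lower, higher or not called.

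**Figure D4:**
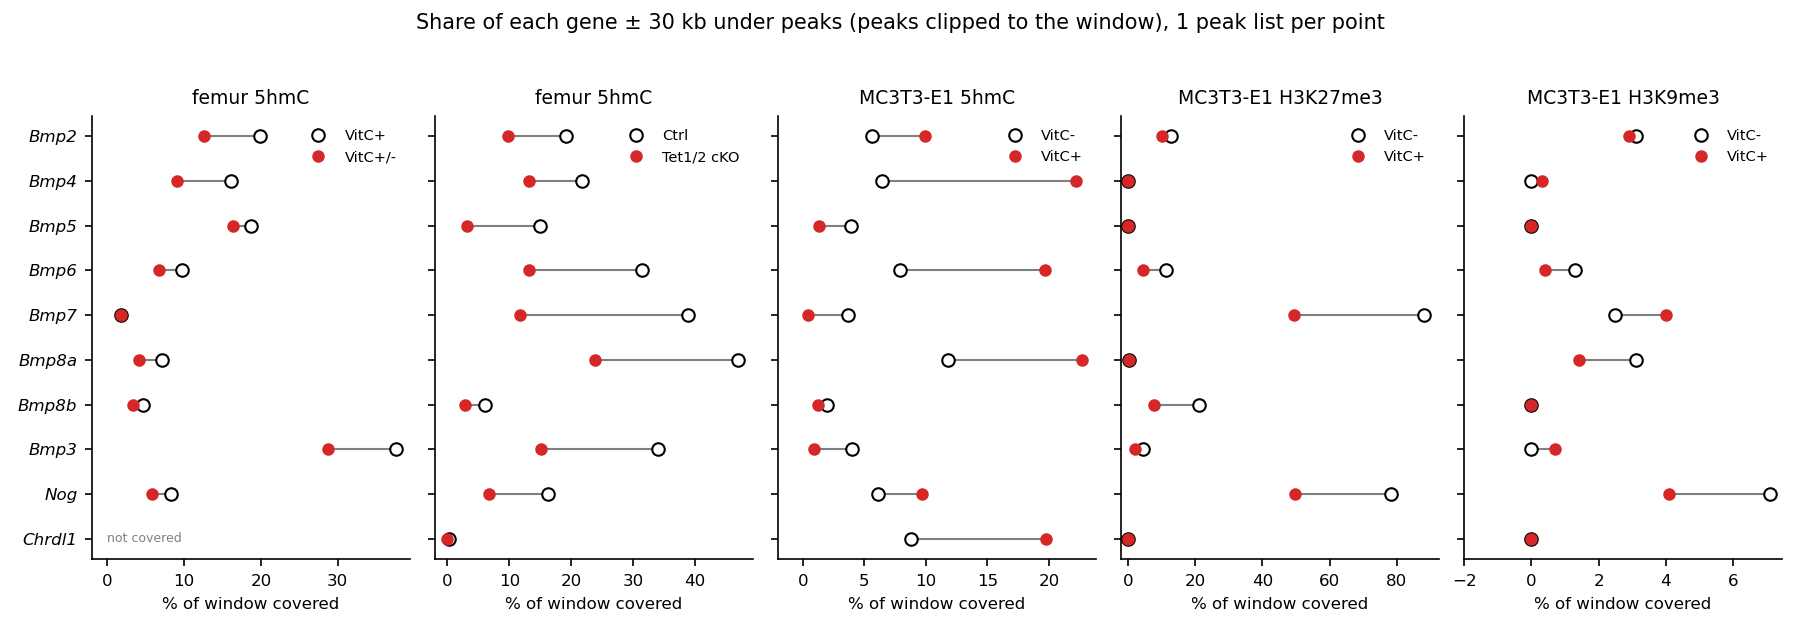
Percent of the window (gene with 30 kb on each side) lying under peaks, with peaks clipped at its ends, in 5 pairs of peak lists; open circles are VitC+, Ctrl or VitC- as named, filled circles VitC+/-, Tet1/2 cKO or VitC+. In the femur pairs the filled circles lie to the left at all genes with cover but Bmp7 after VitC withdrawal (Chrdl1 is not covered by those lists), 5hmC of MC3T3-E1 goes in both directions, and H3K27me3 at Bmp7 and Nog goes from 88.1% and 78.1% to 49.4% and 49.8%.

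In Tet1/2 cKO femurs 5hmC cover was lower than in Ctrl at all 10 members, each of which had a peak. Of all 21521 genes, 18614 had a peak in either list, 18215 (84.6%) had lower cover and 394 (1.83%) higher. Cover fell 2-fold or more at 5 of the members, Bmp3, Bmp5, Bmp6, Bmp7 and Nog, and at 51.9% of all genes. By as much, 0 members and 0.00465% of genes were higher. The members had 244 peaks over 263.0 kb in Ctrl and 135 over 107.2 kb in Tet1/2 cKO, a ratio of 0.408 beside 0.450 for the whole lists, and a median log2 ratio of -1.025 (-1.026 for all genes). Genes without a peak in either list count as unchanged in the median of all genes. Among the genes with a peak the median was -1.12. The BMP loci thus lost cover to about the same extent as other genes. As a log2 ratio the difference was largest at Bmp5 (-2.08, 27.6 to 5.77 kb) and Bmp7 (-1.66, 51.5 to 15.7 kb), and in length it was largest at Bmp6 (67.4 to 28.2 kb). Start-site peaks, in contrast, were at Bmp2, Bmp3, Bmp4, Bmp6 and Bmp8a in both lists, where 40.7% of genes with such a peak in Ctrl had none in Tet1/2 cKO. Chrdl1 had 1 peak in Ctrl and 0 in Tet1/2 cKO, and only 0.456% of the covered length of the Ctrl list lies on X. Bmp7 also shows how far lists of the same tissue differ, with 45 peaks in Ctrl and 8 in VitC+ femurs. The 2 femur experiments differ in age and were called separately, so their covers are set side by side only.

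MC3T3-E1 cells grown with VitC had more 5hmC at some BMP genes and less at others. Cover differed 2-fold or more at 6 of 10 members, 3 lower in VitC+ (Bmp7 -1.99, Bmp3 -1.36 and Bmp5 -1.25 as log2 ratios) and 3 higher (Bmp4 1.58, Bmp6 1.28 and Chrdl1 1.12), beside 24.6% and 32.3% of all genes. Bmp4 went from 7 peaks over 4.32 kb to 19 over 14.9 kb, Bmp6 from 27 over 16.9 kb to 46 over 42.3 kb and Chrdl1 from 30 over 14.85 kb to 48 over 33.4 kb. Bmp7 went from 9 peaks, the highest with 27.3-fold enrichment, to 1 peak with 4.82-fold, and the highest peak of Bmp5 from 38.0-fold to 11.1-fold. In all, the members had 71.8 kb without and 128.9 kb with VitC (ratio 1.79, beside 1.33 for the whole lists). Start-site peaks were at none of the members without VitC and at Bmp2, Bmp8a and Nog with it. Of all genes with such a peak in VitC+, 69.0% had none in VitC-.

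H3K27me3, the mark of Polycomb repression, lay over most of the Bmp7 and Nog windows in MC3T3-E1 cells without VitC. The peaks with their midpoint in the Bmp7 window numbered 13 with a summed length of 108.2 kb without VitC, and 42 with 65.0 kb with VitC. Clipped to the window, peaks lay over 116.6 kb (88.1% of it) and 65.3 kb (49.4%). At Nog 7 peaks summed to 56.8 kb without VitC and 19 to 30.85 kb with it, or 48.4 kb (78.1%) and 30.85 kb (49.8%) when clipped. At both genes, long domains without VitC stood against more and shorter peaks with less cover with it. The whole lists differed in the same direction, with 84228 peaks (median 1030 bp) without and 86322 (median 751 bp) with VitC. The ratio of covered length was 0.62 for the whole lists and 0.565 for the members. A 27367 bp peak lay over the start of Bmp7 without VitC, and with VitC no peak came within 1 kb of that start. All 42 peaks at Bmp7 with VitC overlapped a peak of the list without VitC. All 7 members with a peak had less cover with VitC. Of all 21521 genes, 14843 had a peak in either list and 12885 (59.9%) had less cover. Among the members only Bmp6 (24.1 to 9.57 kb) fell by 2-fold or more, as did 4650 (21.6%) of all genes. With peaks clipped, Bmp8b (17.2 to 6.46 kb) did so too. Bmp4, Bmp5 and Chrdl1 had no H3K27me3 peak in either list. All 6 5hmC peaks at Nog overlapped H3K27me3 without VitC, and 8 of 11 did with VitC, where this mark lay over 78.1% and 49.8% of the window. Without VitC, 5 of 9 did at Bmp7, 3 of 10 at Bmp2, 6 of 27 at Bmp6 and 1 of 9 at Bmp3. With VitC, these were 0 of 1, 1 of 12, 2 of 46 and 0 of 2. The other members had no such overlap. The share over all 5hmC peaks was not computed. The labels give 28 days of culture, whereas the methods and the peak names of the histone lists give 7 days, so that 5hmC and histone lists may be of different days.

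**Figure D5:**
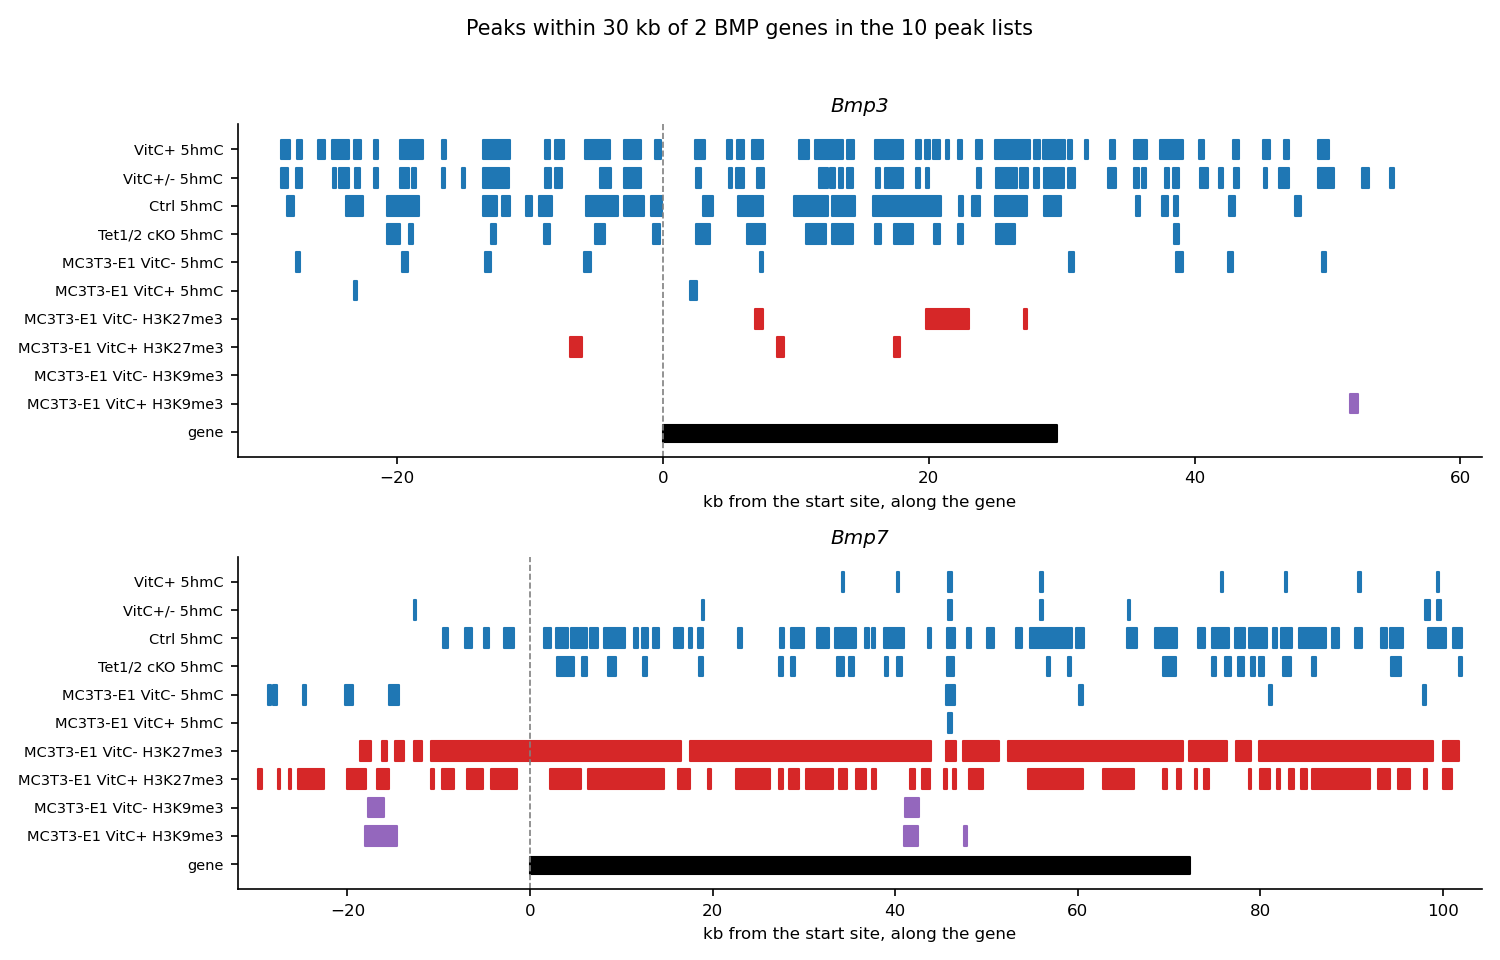
Peaks around Bmp3 and Bmp7 in the 10 lists, by distance in kb from the start site along the gene; blue is 5hmC, red H3K27me3, purple H3K9me3 and black the gene. Bmp3 carries 41 and 46 5hmC peaks in the VitC+ and VitC+/- femur lists, and H3K27me3 spans most of Bmp7 in VitC- cells.

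H3K9me3, a mark of heterochromatin, was sparse at the members, with 15 peaks over 15.5 kb without and 15 over 12.9 kb with VitC. Only Bmp6 differed 2-fold (2.86 to 0.87 kb), beside 16.5% of genes lower and 1.82% higher. Bmp8a had a start-site peak of H3K9me3 in both lists and Bmp2 in VitC+ alone. Bmp5, Bmp8b and Chrdl1 had none in their windows.

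A few 5hmC peaks recurred in every tissue and condition. Of the 257 member peaks of the VitC+ femur list, 13 (5.06%) overlapped a peak in all 6 5hmC lists, beside 6.91% of all 371568 peaks of that list. The only such peak at Bmp5 and the only one at Bmp7 are shown, picked after their values were seen. Each had the highest fold of its gene in VitC+ femurs, and the stretches shown hold no CG. Both lie in introns, at 115.9 and 46.0 kb from the start site.
Bmp5 intron, plus strand, 300 of 1053 bp, chr9:75891345-75891644: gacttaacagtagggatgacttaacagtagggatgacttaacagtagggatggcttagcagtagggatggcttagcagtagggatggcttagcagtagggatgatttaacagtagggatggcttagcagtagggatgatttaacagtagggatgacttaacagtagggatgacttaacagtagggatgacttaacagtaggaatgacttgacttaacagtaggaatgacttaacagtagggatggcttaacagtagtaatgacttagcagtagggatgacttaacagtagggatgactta
Bmp7 intron, minus strand, 300 of 496 bp, chr2:172894163-172894462: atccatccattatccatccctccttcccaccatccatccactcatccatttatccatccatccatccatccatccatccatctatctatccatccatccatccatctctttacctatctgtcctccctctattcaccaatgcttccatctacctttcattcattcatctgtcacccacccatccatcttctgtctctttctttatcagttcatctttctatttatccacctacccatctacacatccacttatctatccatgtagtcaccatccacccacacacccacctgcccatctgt

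The Bmp5 stretch was 88.0% identical to itself when shifted by 17 bases and the Bmp7 stretch 61.8% when shifted by 4. By a limit of 80% identity over the whole peak at any shift up to 60 bases, 0.426% of all peaks of the list were repeats, and 1 of the 257 member peaks, that of Bmp5. The fold enrichment of these peaks in VitC+ femurs was 20.4 at Bmp5 and 11.0 at Bmp7, each the highest of its gene there. Over the whole peak they hold 0 and 0.40 CG per 100 bases, and the Bmp7 peak, 61.0% identical to itself at its best shift, did not reach the limit for a repeat.

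The genes whose values followed the members most closely over the 9 VitC libraries are given as a description, by the root mean square difference of centred log2 values. Bmp3 was most like Ust (0.20), Tmtc2 (0.20) and Hpgd (0.23), and Bmp7 like Rhpn2 (0.15), Pitpnm3 (0.19) and E130203B14Rik (0.20). Bmp8a was most like Cdk18 (0.17), Lpin3 (0.18) and Slit3 (0.18). Nog was most like Pdk4 (0.31), Rasd1 (0.35) and Fos (0.37), the widest distances of the family, and Chrdl1 like the adipocyte regulator Pparg (0.24), then Rgl1 (0.29) and Cxcl12 (0.30). Bmp2 was nearest to Yap1 (0.14), Bmp4 to Epha2 (0.165), Bmp5 to Lphn1 (0.12) and Bmp6 to Ddx59 (0.18). The standard deviation of the member itself over these libraries ran from 0.43 for Bmp6 to 1.15 for Nog.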

How the data were processed

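RNA of mouse femurs was sequenced by the authors, mapped to mm10 with STAR 2.6.0b-1 and counted with featureCounts 1.6.3 (submitters' processing notes). The VitC tables hold RPKM values computed by the authors. The Tet table holds signal values deposited as DESeq2-normalized counts. hMeDIP-seq and ChIP-seq peaks were called by the authors with MACS2 after BWA mapping, and the deposited lists give fold enrichment and −log10 q values; 5hmC lists of femurs were pooled per group and histone lists were called with broad peak settings.

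RPKM values were divided by median-of-ratios factors (0.7456 to 1.111), genes with 1 or more in 3 libraries were kept, and log2(value + 0.5) was tested with limma 3.58.1 (R 4.3.3) over all groups of an experiment, with Benjamini-Hochberg adjustment. Normalized counts of 10 or more in 3 libraries were tested as log2(value + 1). Count tests planned for raw counts were run only on recovered reads (edgeR 4.0.16, DESeq2 1.42.0), since the tables hold normalized values. Between 93.5% and 96.0% of low RPKM values were whole reads within 0.1. The tests were tried on simulated data. p-values set the difference between groups against the spread between these samples. The labels do not name separate animals. The paper gives 3 independent animals per group for the VitC femur RNA and biological triplicates for femur RNA-seq in general.

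A peak belonged to a gene when its midpoint lay within 30 kb of it, and cover, the summed length of these peaks (clipped to the window for percents), was compared as log2 of bases + 1000, calling differences of 2-fold or more, with no test. Peaks touching 1 kb on either side of the start site were start-site peaks. Log2 ratios of cover are therefore smaller for little cover.

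The members and gene lists were chosen with earlier results of these data known. Named were all 10 members, at most 4 genes past the threshold per pathway list and comparison by size of change, the 3 genes most like a member, and Gulo, Tet1 and Tet2 as checks. Marker lists for endothelial cells, marrow stroma, erythroid cells and periosteum with fibroblasts had 0, 2, 1 and 2 genes past the threshold between VitC+/- and VitC+. Alternatives were other scalings, filters and pseudocounts, a replicate block, libraries left out, and other windows and thresholds for peaks.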

Additional observations from a re-analysis of the deposited data

How the results depend on the processing

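For members, the 3 calls in VitC+/- against VitC+ besides Bmp7 were the least stable. Members past the threshold numbered 4 with all libraries, 1 to 4 with single libraries left out and 0 without WT replicate 3 and VitC+ replicate 1 together; with the RPKM values as deposited, which shift the median of all genes by 0.135, Bmp6 was lost (adjusted p = 0.175) and Nog passed (adjusted p = 0.0301). Against WT 4 to 5 passed, between WT and VitC+ 0 to 5, and in the Tet femurs 0 in every fit. The counts of all genes moved with the library left out as well. In VitC+/- against VitC+ they ran from 328 lower and 161 higher without VitC+/- replicate 1 to 1275 and 1008 without WT replicate 1. Against WT they ran from 1163 and 1107 without WT replicate 3 to 1978 and 2057 without WT replicate 1. Log2 fold changes turned sign for Chrdl1 in VitC+/- against VitC+ (0.10 as deposited, 0.0033 with TMM scaling, 0.16 without both libraries, -0.42 to 0.35 with single libraries left out), for Bmp2 there (-0.45 to 0.12), for Bmp3 against WT (-0.58 to 0.15), and in Tet1/2 cKO for Chrdl1 (-0.52 to 0.21) and Bmp8b (-1.997 to 0.60). The cause was not tested.

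Limma fits with the replicate number as a block gave 2 members between WT and VitC+, Bmp4 (adjusted p = 0.0308) and Bmp8a (0.0404). There 602 genes were lower and 168 higher of 12586. In VitC+/- against VitC+ 4 members passed, losing Bmp6 at 0.0557 and gaining Nog at 0.0314, with 1264 lower and 908 higher genes. Against WT 4 members passed, with 2222 lower and 2246 higher genes. In the Tet femurs 0 members and 0 genes passed. Same-numbered samples correlated at -0.19 to 0.464 (4 of 9 pairs over 0.1) in the VitC and -0.567 to 0.529 (6 of 18) in the Tet femurs, so the number is no evidence of pairing.

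Members with a 2-fold difference in H3K27me3 cover numbered 0 within 30 kb and 3 within 10 kb of the start site, 0 at a −log10 q of 5 or more, 2 with peaks clipped to the window and 2 by number of peaks. For H3K9me3 the numbers were 0, 0 and 0 in the first 3 of these and 2 by number of peaks. For 5hmC in Tet1/2 cKO they were 2 within 10 kb, 9 at the stricter q and 3 by number. The share of all genes was not computed for these settings, so these numbers do not set the members apart from other genes. By number of peaks, H3K27me3 turned to 0.19 at Bmp6, 1.62 at Bmp7 and 1.32 at Nog, where fewer long peaks became more short ones; H3K9me3 at Bmp6 turned to 0.14 in the start-site windows and at the stricter q. Of all alternatives for the counts, 117 stayed within 1.5 times the value reported and 19 did not. Low read numbers limit Bmp8b and, in WT and Tet femurs, Nog.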
